A study of Homo sapiens with 11 samples.

Results

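The 44 genes described here belong to the DNA damage response, out of 19970 protein-coding genes on chromosomes 1 to 22 and X. They were taken as a named list: kinases and adaptors of the checkpoint, proteins of chromatin at breaks, factors of homologous recombination, end joining, single-strand break and mismatch repair, and genes induced by damage. For each gene the presence and the fold enrichment of peaks within 1 kb of either annotated gene end were read for 9 chromatin targets, and the genes were set against other protein-coding genes that carry H3K4me3. Fold enrichment is the ratio of signal at a peak's summit to its local background, as computed by the authors' peak caller, and it ranks peaks within 1 list only.

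The DNA damage response senses breaks and stalled replication forks through the kinases ATM and ATR, which halt the cell cycle through CHEK2 and CHEK1 and direct repair. A double-strand break is marked by phosphorylated H2AX and then repaired by homologous recombination, which copies a sister chromatid, or by end joining, which ligates the ends. The NuRD complex combines a nucleosome remodeller, CHD4, with a histone deacetylase, HDAC2, the scaffold MTA2 and the histone-binding RBBP4. H3K4me3 marks gene starts, H3K27ac marks active promoters and enhancers, H3K4me1 is typical of enhancers, and H3K27me3 is the mark of Polycomb repression.

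The cells were SK-N-MC, a human Ewing sarcoma line in long use, whose EWSR1::FLI1 fusion joins a FLI1 DNA-binding domain to EWSR1, and the assay was ChIP-seq. The labels call the cells wildtype and give no treatment. CHD4 was precipitated through a Flag tag; the labels do not say how the tagged protein was made. Each target had 1 peak list, and the 2 input samples were not analysed here.

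The lists held between 1561 peaks for FLI1 and 31247 peaks for H3K4me1. Since no target had a replicate, differences between members and other genes have no replicate check and no test was made. The intervals given with shares are 95% Wilson intervals that cover counting error over genes only. Shares printed without an interval have such error too. Known targets of the fusion served to check the label: NR0B1, CCK, NKX2-2 and STEAP1 all had a FLI1 summit within 100 kb of a gene end. The distances were 0.406 kb at CCK, 1.35 kb at NR0B1, 33.2 kb at NKX2-2 and 43.6 kb at STEAP1. Of other genes that carry H3K4me3, 13.9% had a FLI1 summit within the same reach.

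The damage response genes carried the marks of active promoters almost without exception. H3K4me3 was present at 41 of 44 members (93.2%, interval 81.8 to 97.7%), beside 56.9% of all other genes. Of these 41, 39 carried H3K27ac (95.1%, interval 83.9 to 98.7%), beside 66.8% of other genes with H3K4me3. The weakest H3K4me3 peak of a member, at TP53BP1, had a fold enrichment of 9.62, and among the 10729 other genes at or above that value 69.5% carried H3K27ac. This cutoff kept every member with H3K4me3 and 10729 of 11345 other genes, so it did not match H3K4me3 levels between the sets. Members carried H3K27ac more often than other H3K4me3 genes with and without the cutoff. When only the top 2000 peaks per target were kept, the order was reversed, with H3K27ac at 1 of 12 members (8.33%), against 28.4% of other genes. In 2 lists of related genes, H3K4me3 was at 79 of 82 other repair genes (96.3%) and 57 of 58 cell cycle and replication genes (98.3%). Both shares were above that of the members. Of those with H3K4me3, 60 of 79 other repair genes carried H3K27ac (75.9%, interval 65.5 to 84.0%). So did 50 of 57 cell cycle and replication genes (87.7%, interval 76.8 to 93.9%).

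NuRD subunits were present at most members, in different numbers. HDAC2 was found at 34 of 41 (82.9%, interval 68.7 to 91.5%), beside 65.7% of other H3K4me3 genes. RBBP4 was found at 22 (53.7%, interval 38.7 to 67.9%), beside 37.3%, and MTA2 at 20 (48.8%, interval 34.3 to 63.5%), beside 35.2%. CHD4 was found at 9 (21.95%, interval 12.0 to 36.7%), beside 16.9%. The members' intervals lay above the other genes' share for H3K4me3, H3K27ac, HDAC2 and RBBP4, the last 2 by a small margin, and held that share for MTA2 and CHD4. At least 1 subunit was present at 36 of 41 members (87.8%, interval 74.5 to 94.7%), beside 75.6%, and all 4 at 7 (17.1%, interval 8.53 to 31.3%), beside 9.35%; both of these intervals held the other genes' share.

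**Figure D1:**
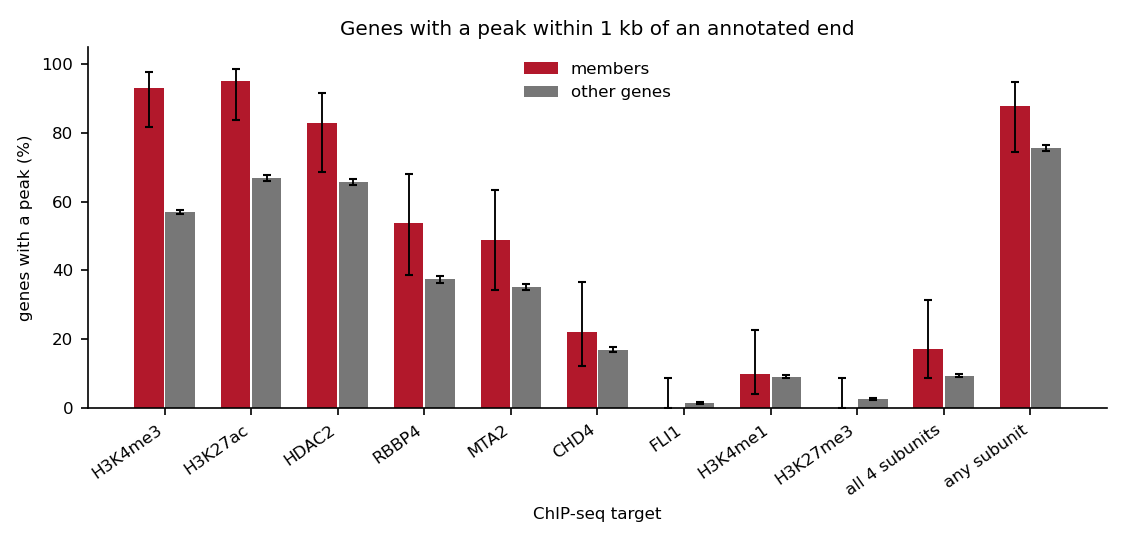
Share of genes (%) with a peak of each target within 1 kb of an annotated end, for members (red, left) and other genes (grey, right), with 95% Wilson intervals as error bars. H3K4me3 is a share of 44 members and of 19926 other genes, and every other bar a share of 41 members and of 11345 other genes that carry H3K4me3. The members' bar stands well above the other genes' for H3K4me3 and H3K27ac, and is at 0 for FLI1 and H3K27me3.

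Subunit peaks and H3K27ac went together at other genes: HDAC2 was at 73.6% of those with H3K27ac and 49.9% of those without it. Within genes that had both H3K4me3 and H3K27ac, HDAC2 was at 32 of 39 members (82.1%), against 73.6% of other genes. RBBP4 was at 22 (56.4%), against 45.3%, and MTA2 at 20 (51.3%), against 42.6%. CHD4 was at 7 of the 39 (17.9%), against 20.5%. Once H3K27ac was present in both sets, the members' surplus was smaller for HDAC2, RBBP4 and MTA2, and CHD4 was no more frequent at members. No intervals were computed within these genes, so whether the remaining surplus exceeds counting error was not tested.

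The fold enrichments of the members were close to those of other genes with a peak. The median for H3K4me3 was 20.1 at members (quartiles 16.2 and 23.9) and 19.0 at other genes (15.0 and 22.9). For H3K27ac it was 8.91 at members (7.08 and 11.6) and 9.47 at other genes (7.28 and 12.7). The members' median was slightly higher for H3K4me3 and slightly lower for H3K27ac, in each case by less than the distance between their quartiles. Among the subunits, the medians were 4.72 at members against 4.77 at other genes for HDAC2, 3.67 against 3.73 for RBBP4, 6.67 against 6.57 for MTA2, and 4.21 against 3.97 for CHD4. Each of these 4 pairs differed by less than the distance between the members' own quartiles.

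**Figure D2:**
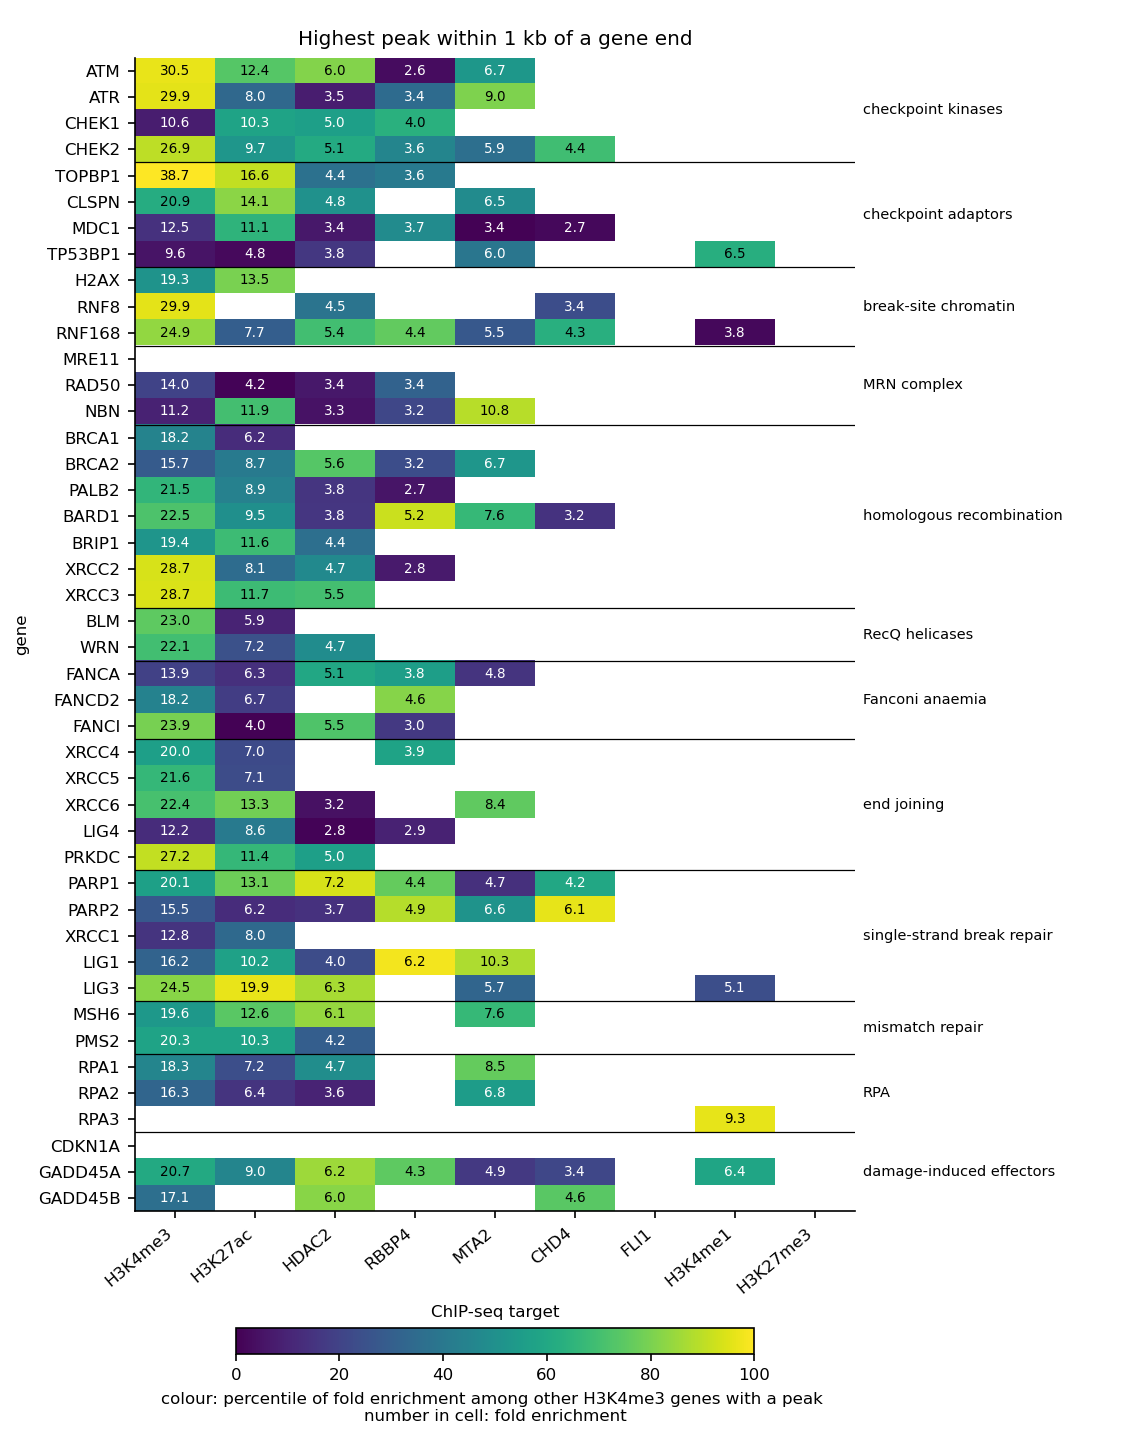
Fold enrichment (number in each cell) of the highest peak within 1 kb of a gene end, for each of the 44 members (rows, grouped by role) and 9 targets (columns). Colour gives the percentile of that value among other H3K4me3 genes with a peak of the same target, and white means no peak; the 2 left columns are nearly full, and the columns of FLI1 and H3K27me3 are empty.

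The 4 checkpoint kinases all carried H3K4me3, H3K27ac, HDAC2 and RBBP4. ATM, the kinase of double-strand breaks, had an H3K4me3 fold enrichment of 30.5, with H3K27ac at 12.4, HDAC2 at 5.99, RBBP4 at 2.59 and MTA2 at 6.73. At ATR, the kinase of stalled forks, the highest H3K4me3 peak (29.9) lay 501 bp beyond the 3' end of the gene, and the peak at its start had 18.5. CHEK2, the kinase that acts below ATM, was the member of this group with all 4 subunits, with HDAC2 at 5.12, RBBP4 at 3.64, MTA2 at 5.89 and CHD4 at 4.44. CHEK1, which acts below ATR, had one of the weaker H3K4me3 peaks (10.6) and carried HDAC2 and RBBP4 alone among the subunits. The kinases thus shared 2 subunits and differed in MTA2 and CHD4.

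The adaptors of the checkpoint all carried HDAC2. TOPBP1, which activates ATR, had the strongest H3K4me3 peak of all members (38.7) and the second strongest H3K27ac peak (16.6). CLSPN (Claspin), which brings CHEK1 to ATR, had its highest H3K27ac peak (14.1) 712 bp beyond the 3' end and a weaker one (6.61) at its start. MDC1, which binds phosphorylated H2AX, had all 4 subunits, with HDAC2 at 3.39, MTA2 at 3.36 and CHD4 at 2.70, in that order at percentiles 6.56, 0.776 and 2.19 of other genes with a peak, and RBBP4 at 3.69, at percentile 48.2. TP53BP1, which steers breaks towards end joining, had the lowest H3K4me3 value within 1 kb of a gene end (9.62), while a stronger peak (18.3) lay inside the gene at chr15:43492332-43493794.

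Among the genes of chromatin at breaks, RNF168, a ubiquitin ligase that marks H2A, was covered by 7 of 9 targets. Its H3K4me3 peak had a fold enrichment of 24.9, H3K27ac 7.66, HDAC2 5.44, RBBP4 4.37, MTA2 5.47, CHD4 4.31 and H3K4me1 3.77. RNF8, the ligase that acts before RNF168, had strong H3K4me3 (29.9), HDAC2 (4.46) and CHD4 (3.41), and no H3K27ac peak. H2AX, the histone variant itself, carried H3K4me3 (19.3) and H3K27ac (13.5) and no subunit. The 3 genes of 1 signalling step therefore had 4 subunits, 2 subunits and none.

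The MRN complex binds and trims broken ends. RAD50, its ATPase, carried H3K4me3 at 14.01, a weak H3K27ac peak at 4.19, HDAC2 at 3.38 and RBBP4 at 3.37. NBN, its adaptor to ATM, had weak H3K4me3 (11.2), H3K27ac at 11.9 and the highest MTA2 value of all members (10.8). MRE11, its nuclease, had no peak within 1 kb of an annotated end. Its start site lies inside the annotated gene and carried H3K4me3 (19.7), H3K27ac (7.66), HDAC2 (4.84) and RBBP4 (3.33).

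All 7 genes of homologous recombination carried H3K4me3 and H3K27ac, and 6 of 7 carried HDAC2. BARD1, the partner of BRCA1, had all 4 subunits, with HDAC2 at 3.80, RBBP4 at 5.19, MTA2 at 7.62 and CHD4 at 3.21. BRCA1, which promotes end resection, carried H3K4me3 (18.2) and H3K27ac (6.17) and no subunit. BRCA2, which loads the recombinase, had HDAC2 at 5.60, RBBP4 at 3.197 and MTA2 at 6.70, and PALB2, which joins BRCA1 and BRCA2, had HDAC2 at 3.75 and RBBP4 at 2.70. The 2 partners BRCA1 and BARD1 thus stood at the opposite ends of the subunit count. XRCC2 and XRCC3, helpers of the recombinase, both had an H3K4me3 value of 28.7, and the helicase BRIP1 had 19.4; XRCC2 carried HDAC2 (4.69) and RBBP4 (2.76), and XRCC3 and BRIP1 carried HDAC2 alone, at 5.45 and 4.41.

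The RecQ helicases BLM and WRN unwind recombination intermediates. BLM carried H3K4me3 (23.05) and H3K27ac (5.90) and no subunit, and WRN carried H3K4me3 (22.1), H3K27ac (7.24) and HDAC2 (4.74). The Fanconi genes act on crosslinks between strands. FANCA, of the core ligase, had HDAC2 at 5.08, RBBP4 at 3.84 and MTA2 at 4.81; FANCI had HDAC2 at 5.55 and RBBP4 at 3.01; its partner FANCD2 had RBBP4 alone, at 4.57. H3K27ac was weak at these 5 genes, between 4.00 at FANCI and 7.24 at WRN, below the members' median of 8.91.

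The 5 end joining genes had between 0 and 2 subunits. XRCC5, the larger part of the Ku clamp, carried H3K4me3 (21.6) and H3K27ac (7.12) and no subunit, while XRCC6, the other part of Ku, carried H3K27ac at 13.3, HDAC2 at 3.22 and MTA2 at 8.39. PRKDC, the kinase that Ku activates, had HDAC2 alone (4.97), and XRCC4, the scaffold of the ligase, had RBBP4 alone (3.89). LIG4, the ligase, had the lowest HDAC2 value of all members (2.78) and RBBP4 at 2.85. CHD4 was at 0 of the 5 genes, too few to be set apart from its share of 16.9% at other H3K4me3 genes.

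Genes of single-strand break repair held the highest HDAC2, RBBP4 and CHD4 values of all members. PARP1, which senses strand breaks and makes poly(ADP-ribose), had the highest HDAC2 value (7.20), with RBBP4 at 4.38, MTA2 at 4.70, CHD4 at 4.21 and H3K27ac at 13.1. Its relative PARP2 had the highest CHD4 value (6.11), with HDAC2 at 3.73, RBBP4 at 4.94 and MTA2 at 6.63. LIG1, a replicative ligase, had the highest RBBP4 value (6.24) and the second highest MTA2 value (10.3) without CHD4. LIG3, the ligase bound to XRCC1, had the highest H3K27ac value (19.9), HDAC2 at 6.33 and MTA2 at 5.70. XRCC1, the scaffold of this pathway, was the exception, with H3K4me3 at 12.8, H3K27ac at 8.04 and no subunit.

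In mismatch repair, MSH6, which recognises the mismatch, had HDAC2 at 6.14 and MTA2 at 7.63, and PMS2, the endonuclease, had HDAC2 alone (4.23). PMS2 has near-identical copies in the genome, and how reads shared between copies were handled is not given, so its values are uncertain. RPA coats single-stranded DNA. RPA1 carried HDAC2 (4.74) and MTA2 (8.47), RPA2 carried HDAC2 (3.56) and MTA2 (6.84), and RPA3 had only an H3K4me1 peak (9.31) near a gene end. The strongest H3K4me3 peak inside RPA3 had a fold enrichment of 23.1 at chr7:7639616-7640581, with HDAC2 (5.92) and RBBP4 (2.49) beside it.

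The last 3 members are induced by damage. GADD45A, a stress protein that slows the cell cycle, carried 7 targets: H3K4me3 at 20.7, H3K27ac at 9.05, HDAC2 at 6.22, RBBP4 at 4.34, MTA2 at 4.91, CHD4 at 3.36 and H3K4me1 at 6.37. Its relative GADD45B carried H3K4me3 (17.1), HDAC2 (6.03, and 5.37 at its start) and CHD4 (4.60), and no H3K27ac. At annotated gene ends, RNF8 and GADD45B were the only members with H3K4me3 and no H3K27ac, and both carried exactly HDAC2 and CHD4. That pair of subunits alone was found at 172 of 11345 other genes with H3K4me3 (1.52%). Its share among other genes without H3K27ac was not computed. CDKN1A, the cyclin-dependent kinase inhibitor p21, had no peak within 1 kb of an annotated end.

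Of the 41 members with H3K4me3, 7 had all 4 subunits (CHEK2, MDC1, RNF168, BARD1, PARP1, PARP2 and GADD45A), 6 had 3, 16 had 2, 7 had 1 and 5 had none (H2AX, BRCA1, BLM, XRCC5 and XRCC1). At other H3K4me3 genes 9.35% had 4, 13.7% had 3, 24.1% had 2, 28.4% had 1 and 24.4% had none. The most common sets at members were all 4 subunits, HDAC2 with MTA2, and HDAC2 with RBBP4, at 7 genes each (17.1%), against 9.35%, 9.74% and 11.5% of other genes. All 9 members with CHD4 also had HDAC2, as did 1782 of 1921 other genes with CHD4 (92.8%). MTA2 without HDAC2 was at 0 of 41 members and at 661 of 11345 other genes (5.83%). Both counts were near the other genes' share. RBBP4 was at 53.7% of members, against 39 of 79 other repair genes (49.4%) and 33 of 57 cell cycle and replication genes (57.9%). Any subunit was at 87.8% of members, against 64 other repair genes (81.0%) and 53 cell cycle and replication genes (93.0%). HDAC2 was at 82.9% of members, against 70.9% of other repair genes and 75.4% of cell cycle and replication genes, MTA2 at 48.8%, against 27.8% and 35.1%, and CHD4 at 21.95%, against 10.1% and 7.02%. For RBBP4 and any subunit the members thus lay between these lists. All 4 subunits were present at 4 of 79 other repair genes (5.06%) and 2 of 57 cell cycle and replication genes (3.51%).

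**Figure D3:**
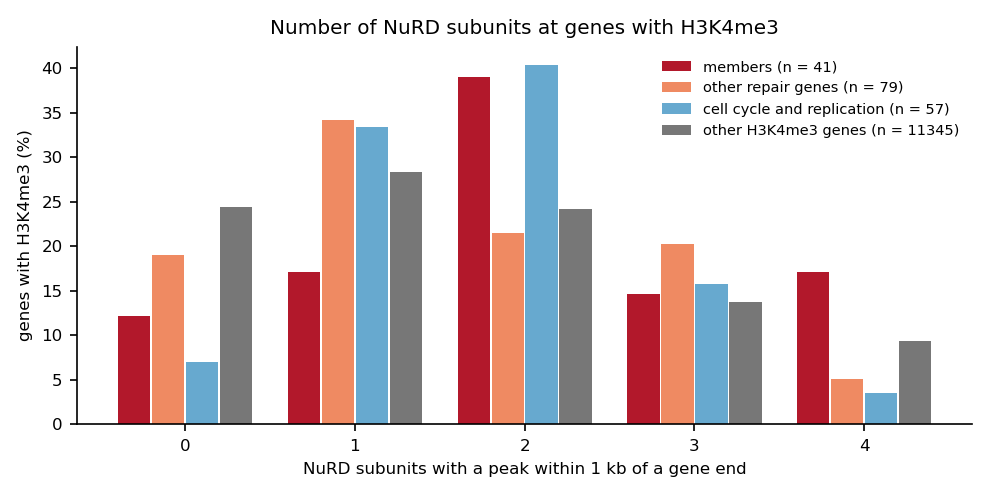
Share (%) of genes with H3K4me3 that had peaks of 0 to 4 NuRD subunits within 1 kb of a gene end, for members, other repair genes, cell cycle and replication genes, and other H3K4me3 genes (n in the legend). Members peak at 2 subunits (39.0%) and have the tallest bar at 4 (17.1%).

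The 82 other repair genes were listed from textbook knowledge, with earlier results of these data known. H3K4me3 was present at 79 of them. None of the 79 carried FLI1 or H3K27me3 (interval 0.0 to 4.64% for each). Other H3K4me3 genes carried them at 1.37% and 2.42%, and the intervals held both shares. The 5 of highest HDAC2 fold enrichment were MAD2L2 (12.5), a shieldin and translesion polymerase subunit, the uracil glycosylase UNG (8.14), BABAM2 (7.67), of the BRCA1-A complex, the end joining factor APLF (7.25) and the nuclease FAN1 (6.85). Of these 5, 4 exceeded the highest member, PARP1, and FAN1 did not. BABAM2 carried this peak without H3K4me3 at a gene end. APLF, FAN1, RAD51B and TIPIN had all 4 subunits.

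FLI1 was absent from the ends of the damage response genes. It was at 0 of 41 members (interval 0.0 to 8.57%), beside 1.37% of other H3K4me3 genes, a share so low that none among 41 cannot be told apart from it. Within 100 kb, a FLI1 summit lay near 3 of 44 members (6.82%, interval 2.35 to 18.2%), and near 3 of the 41 with H3K4me3 (7.32%), beside 13.9% of other H3K4me3 genes. The strongest was 60.8 kb from XRCC3 with a fold enrichment of 9.91, overlapped by H3K27ac and all 4 subunits. One at 16.9 kb from MDC1 (4.74) was overlapped by H3K4me3, H3K27ac and all 4 subunits, and one at 23.7 kb from LIG4 (4.52) by MTA2 only. Both peaks overlapped by H3K27ac also held the full set of subunits, and none of the 3 lay inside a member.

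H3K4me1 was at 4 of 41 members (9.76%, interval 3.86 to 22.5%), beside 9.07%: TP53BP1 (6.53), RNF168 (3.77), LIG3 (5.13, at its 3' end) and GADD45A (6.37). H3K27me3 was at 0 of 41 (interval 0.0 to 8.57%), beside 2.42%. Both intervals held the share of other genes.

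The rule counts both ends of a gene, so starts were also examined for the 36 members that the RefSeq promoter table of GRCh38.p14 holds. NBN, WRN, FANCI, XRCC5, PRKDC, RPA2, RPA3 and GADD45A were not among them. All 36 carried H3K4me3 within 1 kb of a start (interval 90.4 to 100.0%), beside 61.1% of 15775 other genes. H3K27ac was at 33 (91.7%), beside 67.9%. HDAC2 was at 30 (83.3%), beside 65.6%, RBBP4 at 21 (58.3%), beside 38.2%, MTA2 at 18 (50.0%), beside 35.5%, and CHD4 at 9 (25.0%), beside 17.1%. All 4 subunits were at 7 (19.4%), beside 9.73%. H3K4me1 was at 3 (8.33%), beside 6.74%, FLI1 at 0, beside 1.4%, and H3K27me3 at 1 (2.78%), beside 2.44%. The order of members and other genes was the same as at gene ends for each target but H3K27me3, where the 1 member was CDKN1A.

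CDKN1A, read at its start, had peaks of 7 targets in a set found at no other member. The start lies 2251 bp inside the annotated outer end, which is why the rule on gene ends missed it. It had the weakest H3K4me3 of the 36 (7.57) and no H3K27ac, with H3K27me3 at 6.15 and H3K4me1 at 5.53. All 4 subunits were present, with HDAC2 at 7.17, RBBP4 at 4.62, MTA2 at 4.83 and CHD4 at 4.90. It was the only one of the 36 with H3K27me3, and HDAC2 there was close to the highest value of the members, that of PARP1. A second set of summits lay between 1763 and 1877 bp downstream, where HDAC2 had 5.85, RBBP4 5.62, MTA2 7.71, CHD4 6.26 and H3K27me3 6.42. Of 235 other genes with H3K4me3 and H3K27me3 at a start, 7 (2.98%) had all 4 subunits, and 6 of those 7 lacked H3K27ac. These lists cannot tell whether both methylation marks lay on the same chromosomes.

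Promoter windows of 5 members follow, each from 250 bases before to 50 after a start. PARP1, RNF168 and BARD1 are shown because their windows were the only 3 among members overlapped by peaks of all 4 subunits together with H3K4me3 and H3K27ac. CDKN1A, with all 4 subunits and no active mark in the window, and BRCA1, with both active marks and no subunit, were chosen for contrast after their values were seen. Sequences are from RefSeq, GRCh38.p14, given 5' to 3' on the gene's strand. Capitals mark CCGGAAGT (the ETS site), CCAAT (bound by NF-Y) and GGGCGG (bound by SP1) on either strand. The windows are chr1:226408044-226408343 (PARP1, minus), chr3:196503719-196504018 (RNF168, minus), chr2:214809634-214809933 (BARD1, minus), chr6:36678464-36678763 (CDKN1A, plus) and chr17:43125315-43125614 (BRCA1, minus).
PARP1: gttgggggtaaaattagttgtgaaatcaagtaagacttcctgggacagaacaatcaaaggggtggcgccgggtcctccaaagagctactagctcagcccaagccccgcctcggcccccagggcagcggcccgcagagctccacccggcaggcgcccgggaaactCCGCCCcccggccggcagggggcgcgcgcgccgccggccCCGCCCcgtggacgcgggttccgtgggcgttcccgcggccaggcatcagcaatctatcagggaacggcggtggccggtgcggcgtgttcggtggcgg
RNF168: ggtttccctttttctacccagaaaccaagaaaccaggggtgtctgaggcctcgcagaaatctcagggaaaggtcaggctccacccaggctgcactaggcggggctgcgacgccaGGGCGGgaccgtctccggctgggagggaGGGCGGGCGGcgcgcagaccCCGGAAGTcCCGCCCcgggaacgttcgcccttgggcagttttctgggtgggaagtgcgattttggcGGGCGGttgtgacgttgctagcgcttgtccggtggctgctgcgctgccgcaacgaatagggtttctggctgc
BARD1: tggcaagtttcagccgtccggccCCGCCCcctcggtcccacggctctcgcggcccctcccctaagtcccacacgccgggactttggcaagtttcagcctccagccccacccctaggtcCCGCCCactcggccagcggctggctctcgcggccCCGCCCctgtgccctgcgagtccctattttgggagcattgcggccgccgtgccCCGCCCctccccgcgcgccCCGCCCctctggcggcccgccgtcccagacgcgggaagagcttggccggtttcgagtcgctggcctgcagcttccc
CDKN1A: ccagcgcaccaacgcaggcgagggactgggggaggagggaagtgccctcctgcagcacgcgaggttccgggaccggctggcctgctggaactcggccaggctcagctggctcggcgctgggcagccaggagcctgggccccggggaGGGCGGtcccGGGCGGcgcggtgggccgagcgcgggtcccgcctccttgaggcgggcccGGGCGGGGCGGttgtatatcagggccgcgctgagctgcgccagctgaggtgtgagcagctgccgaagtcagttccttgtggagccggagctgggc
BRCA1: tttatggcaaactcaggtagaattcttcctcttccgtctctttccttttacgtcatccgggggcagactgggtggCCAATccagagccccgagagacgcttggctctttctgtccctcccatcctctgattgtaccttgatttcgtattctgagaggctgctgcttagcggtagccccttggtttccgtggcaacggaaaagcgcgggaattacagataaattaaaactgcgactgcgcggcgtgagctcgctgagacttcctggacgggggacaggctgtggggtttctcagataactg

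GGGCGG occurred 2 times in the PARP1 window, 5 times in RNF168, 5 times in BARD1 and 4 times in CDKN1A, and 0 times in the BRCA1 window shown. The window of the outer BRCA1 start (chr17:43170278-43170577), also without a subunit, held 2 GGGCGG and 0 CCAAT. Windows of the other members with all 4 subunits at a start, CHEK2, MDC1 and PARP2, held 1 GGGCGG each. Among those with no subunit at a start, BLM held 2, XRCC1 1 and H2AX 0. The counts thus overlapped between genes with all 4 subunits and genes with none, with the highest at the former. Whether the count goes with the subunits was not tested. RNF168 also held 1 ETS site and the BRCA1 window shown 1 CCAAT. Over all 36 members, GGGCGG was in the windows of 31 (86.1%), against 80.3% of other genes with H3K4me3 in the window and 64.2% of all other genes. For every motif the members were not filtered by H3K4me3 in the window, which CDKN1A and TP53BP1 lacked. CCAAT was at 23 (63.9%), against 44.2% and 42.0%. The ETS site CCGGAAGT was at 7 (19.4%), against 11.0% and 6.95%, namely RNF168, MRE11, RAD50, BRCA2, PALB2, FANCD2 and LIG4. GGAA, the core of ETS sites and contained in CCGGAAGT and GGAAGGAA, was at 34 (94.4%), against 96.6% and 96.3%.

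GGAAGGAA, a short run of the GGAA unit whose repeats EWSR1::FLI1 binds, was in 0 of 36 members' windows, against 4.69% and 4.93%. With so few members, none cannot be told apart from these shares. TTTCCCGC, an E2F site, was at 5 (13.9%), against 3.57% and 2.63%: CLSPN, XRCC2, FANCD2, LIG1 and MSH6. TGACGTCA, the CREB site, was at 4 (11.1%), against 4.07% and 2.98%: XRCC2, LIG4, PARP2 and PMS2. The shares of the ETS, E2F and CREB sites also rest on few members. No motif share was given an interval, and whether any differs from that of other genes was not tested. Both strands were searched and a gene with several starts was counted once, so genes with more windows had more chances. These matches are descriptions of the letters in the windows and show nothing of binding.

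**Figure D4:**
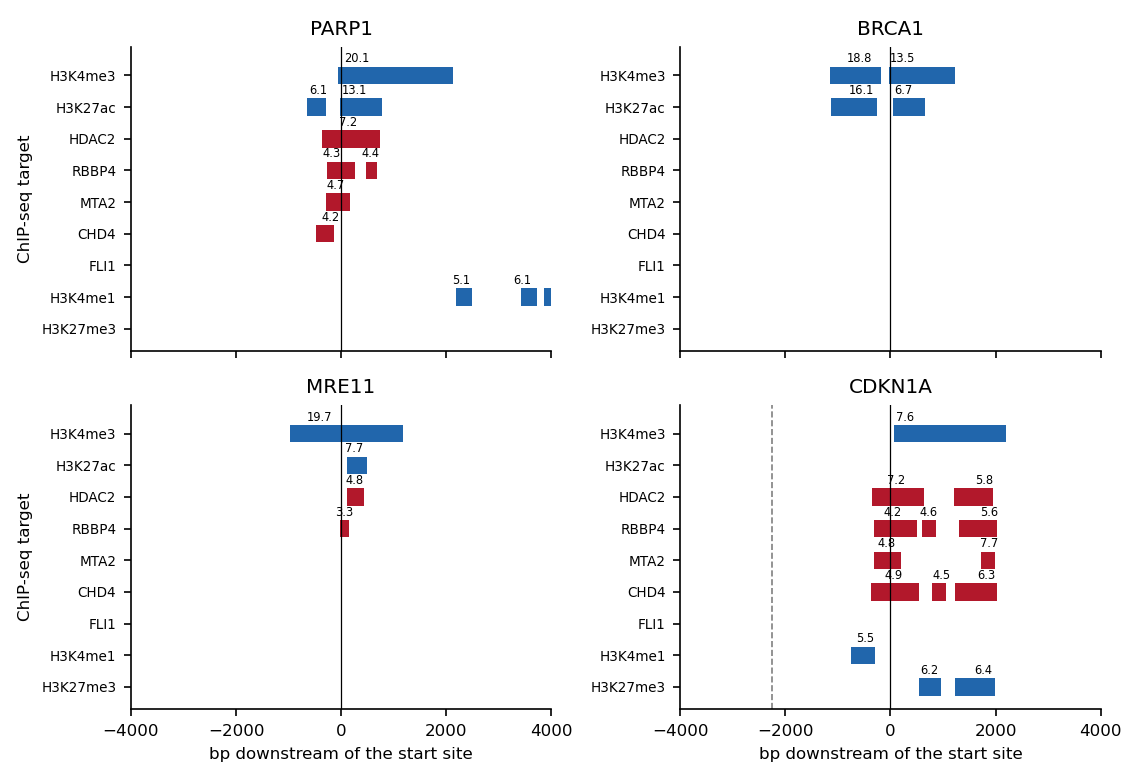
Peaks (bars) of the 9 targets around the start sites of PARP1, BRCA1 (inner start), MRE11 and CDKN1A, in bp downstream of the start, with fold enrichment above each bar; blue bars are histone marks and red bars are proteins. The dashed line at CDKN1A is the outer annotated end of the gene; CDKN1A has H3K27me3 and no H3K27ac, and BRCA1 has no red bar.

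BRCA1 has 2 starts in the table, 44963 bp apart, and neither had a subunit within 1 kb. At the inner start the highest H3K4me3 peak had a fold enrichment of 18.8 and the highest H3K27ac peak 16.1, with summits 597 and 557 bp upstream. At the outer start, 82 bp from the start of NBR1, H3K4me3 was 18.2 and H3K27ac 6.17. At the best ungapped shift between the 2 windows, 106 of 155 aligned bases were identical (68.4%). Gaps were not allowed, so bases past an inserted or missing base were compared out of step. The 2 windows may therefore be more alike than this share. Whether any reads could be placed at both starts was not tested, so the values at both are uncertain.

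Summit positions around the members' starts were spread widely, with medians near those of other genes for the active marks. The median H3K4me3 summit was 252.5 bp downstream at members and 244 bp downstream at other genes. H3K4me3 summits lay upstream at 10 of 36 members. The median H3K27ac summit was 172 bp downstream at members and 163 bp downstream at other genes, with 13 of 33 members upstream. MTA2 summits lay upstream at 17 of 18 members, with 1 downstream (5.56%), against 20.0% downstream at other genes; the medians were 78.5 bp upstream at members and 93 bp upstream at other genes. HDAC2 had its median 60 bp upstream at members and 29 bp downstream at other genes, and RBBP4 7 bp downstream at members and 58.5 bp upstream at other genes. The median CHD4 summit was 210 bp upstream at 9 members, of which 3 lay downstream, and 135 bp upstream at other genes. By their medians MTA2 and CHD4 lay upstream of the start and the active marks downstream of it, in both sets, but the members' quartiles for H3K4me3, H3K27ac and CHD4 lay on both sides of the start.

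**Figure D5:**
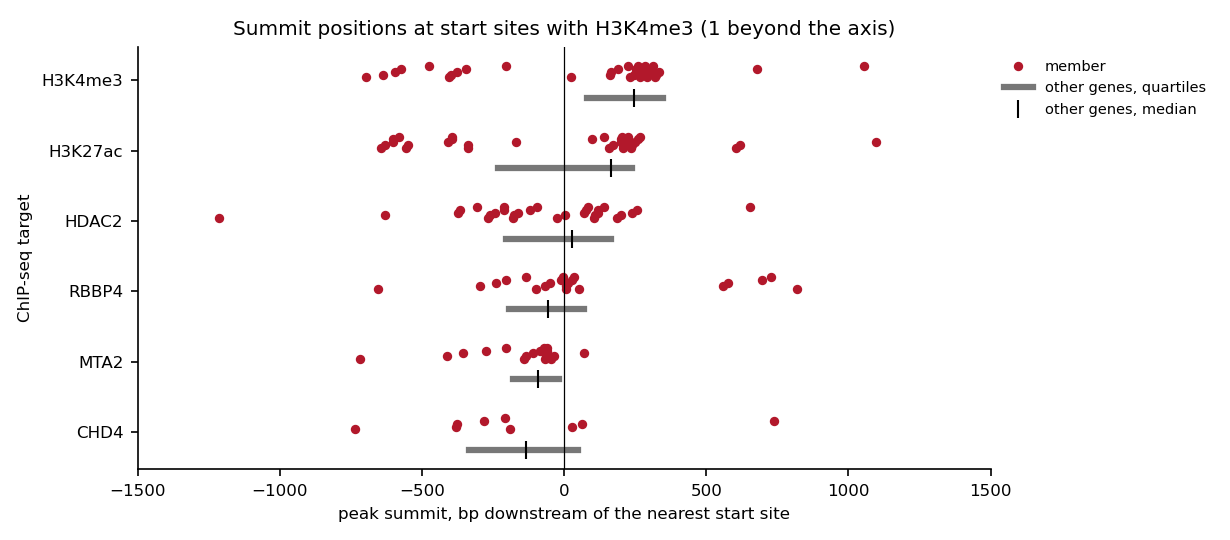
Position of the summit of the highest peak of each target relative to the nearest start site, in bp downstream, at members with a start in the promoter table (red points, 1 per gene). Grey bars are the quartiles and black ticks the median of other genes with H3K4me3 at a start. MTA2 points lie upstream of 0 but for 1, while most H3K4me3 points lie downstream.

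Many members share a promoter region with a neighbour, so a peak may belong to either gene. Another coding gene ended or began within 1 kb of 21 of 41 members (51.2%), against 38.5% of other H3K4me3 genes. At starts, a gene on the opposite strand began within 1 kb of 14 of 36 members (38.9%), against 20.3% of other genes. The closest pairs were LIG4 with ABHD13 (43 bp between starts), TOPBP1 with TF (57 bp), BRCA1 with NBR1 (82 bp), RPA1 with SMYD4 (103 bp) and MRE11 with ANKRD49 (140 bp). H3K27ac was at all 14 of these members and at 19 of the 22 others (86.4%), against 80.2% and 64.8% of other genes with and without such a neighbour. CHD4 was at 1 of the 14 (CHEK2) and at 8 of the 22 (36.4%), against 11.1% and 18.6% of other genes. HDAC2 was about as frequent in both sets of members, at 12 of 14 and 18 of 22. The part of neighbours in the shares above was not tested.

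Further sites lay inside members, more than 1 kb from their ends. A site in ATM, near chr11:108278556-108279174, held HDAC2 (4.88), RBBP4 (5.92), MTA2 (7.21), CHD4 (5.54), H3K27ac (10.5) and H3K4me1 (8.77), although no CHD4 peak was found at the ends of ATM. In LIG1, near chr19:48121736-48122611, HDAC2 reached 9.90 and MTA2 13.2, with RBBP4 at 4.27, CHD4 at 5.27 and H3K27ac at 11.0. Those HDAC2 and MTA2 values exceeded the highest at any member's ends. XRCC5, which had no subunit at its ends, held all 4 near chr2:216171031-216171458, with HDAC2 at 5.49, RBBP4 at 4.61, MTA2 at 4.97 and CHD4 at 3.87. CHEK2 held HDAC2 (3.58), MTA2 (5.08) and CHD4 (4.35) near chr22:28710617-28710883. These 4 sites were chosen after their values were seen, and whether they lie in exons or introns was not analysed here.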

How the data were processed

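ChIP-seq peak lists of 9 targets in SK-N-MC were used, 1 list for each. Per the submitters' processing notes, reads were handled with BWA 0.7.17, SAMtools 1.9, Trimmomatic 0.36, bedtools 2.27.1, FastQC 0.11.7 and deepTools 3.2.1 on GRCh38. Per the deposited peak names MACS2 called the peaks; which version, control library, pooling and region filter were used is not stated in the labels or files used here. Each deposited peak has a fold enrichment, a ratio at the summit, and a −log10 p and −log10 q. The smallest −log10 p was 5.02 for FLI1, 7.01 for RBBP4 and about 9 in the other lists, so a missing peak has a different meaning in different lists. No read counts are listed, and the depth is unknown.

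Gene ends came from a RefSeq gene table of GRCh38.p14 and starts and strands from its promoter table. A peak counted when at least 1 bp lay within 1 kb, and the highest fold enrichment stood for the gene. Scripts used Python 3.11.15, pandas 2.3.3 and numpy 2.4.6, and were checked on planted peaks. Alternatives were windows of 500 bp and 5 kb, summits only, −log10 p of at least 15, the 2000 strongest peaks of each list, starts only, a chromosome left out and the peak of highest −log10 p. All members were accounted for by role; those named in full have all or no subunits, no H3K4me3, a FLI1 or H3K27me3 peak or 1 of the 3 highest values of a target, plus at least 1 per role. Windows were ranked by overlapping targets, then percentiles, and only the first 3 of 6 ranked are printed. Members and lists were chosen with earlier results of these data known.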

Additional observations from a re-analysis of the deposited data

How the results depend on the processing

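Of 92 recomputed values, 78 moved by less than their interval or spread and 14 by more. The 78 include the members' H3K27ac share under the cutoff on H3K4me3. It could not move, because that cutoff changed only the other genes. At 5 kb H3K4me3 was at 97.7% of members and H3K4me1 at 25.6%, at 500 bp H3K4me1 was at 2.44%, and at starts only H3K4me3 was at 100.0%. With −log10 p of at least 15 RBBP4 was at 26.8%, against 14.7% of other genes. With the 2000 strongest peaks of each list 27.3% of members carried H3K4me3, 12 genes; of these 8.33% carried H3K27ac, against 28.4% of other genes, which turned the order round, 25.0% HDAC2, 8.33% RBBP4, 16.7% MTA2, 0.0% CHD4, 0.0% H3K4me1, 0.0% all 4 subunits and 41.7% any subunit. CHD4 and all 4 subunits also turned in order there (2.66% and 0.37% of other genes). The cause was not tested beyond the smaller number of genes. Members stood above other genes in 8 of 8 settings, the one reported included, for H3K4me3, HDAC2, RBBP4, MTA2 and any subunit, in 8 of 9 for H3K27ac, in 7 of 8 for CHD4 and all 4 subunits, in 4 of 8 for H3K4me1, in 1 of 8 for H3K27me3 and in 0 of 8 for FLI1. The restriction of other genes to the members' minimum H3K4me3 was added after the data were seen. Without replicates or read counts, neither the error of a list nor its missed sites can be estimated. No paired analysis was possible because each target has 1 sample.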
